A study of Macaca fascicularis with 11 samples.

Results

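MSX1 (ENSMFAG00000039226) and MSX2 (ENSMFAG00000037372) were followed in cynomolgus macaque (Macaca fascicularis) embryos as 2 of the 19367 genes in the deposited table. They were selected on the measured level of MSX1, which was lower in the Epi-derived cells, that is epiblast and the cells that arise from it, of ISL1 mutant embryos. The level of MSX1 in that contrast is therefore given as a description with no test, and MSX2 and the targeted gene ISL1 are treated in the same way there.

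The MSX genes encode closely related homeobox transcription factors. They are classical targets of BMP signaling, and ID1, ID3 and BAMBI are other genes that BMP commonly induces. In mammalian embryos MSX1 and MSX2 mark tissue next to sources of BMP, such as the limb bud, the roof of the neural tube, the forming amnion and the posterior streak, and MSX2 is also known from trophoblast. BMP4, made by the amnion and the mesoderm in primates, is the ligand most often placed above them, and ISL1 is a LIM-homeobox gene of the amnion and, later, of the heart.

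Single-cell RNA sequencing with the 10x 3′ kit was performed on embryos cultured in vitro to Day 10, Day 12 or Day 14. Wild-type embryos gave 6 libraries from 12 embryos, with 2 libraries per day, and ISL1 hypomorphic mutant embryos gave 5 libraries from 11 embryos, with 2 libraries each at Day 12 and Day 14 and 1 at Day 10. Mutants were made by injection of Cas9 and a pair of guide RNAs against ISL1 into zygotes (as SpCas9 mRNA by the labels and as protein by the study's methods), and embryos of both genotypes were frozen as blastocysts and thawed before culture. The questions were which cells of the embryo carried each gene, how the levels changed with the day, and where mutant and wild-type libraries differed. Editing was mosaic within each embryo by the study's own genotyping, mostly with frameshift deletions and a minority of small in-frame losses, a library pooled 1 to 3 embryos, and nothing in the labels beyond a batch number, 1 or 2, given here as the replicate number, ties libraries to parents. The p-values below therefore measure the spread between these libraries only.

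After the filter of the authors the table held 33330 cells, with 325 to 9625 cells and 36654977 to 164808415 UMIs (unique molecular identifiers, counted molecules) per library and a median of 10916 to 142180 UMIs per cell. The authors' correction for free RNA had removed 0.196% to 8.77% of the UMIs of a library. Of 33205 distinct barcodes, 124 occurred in more than 1 library. MSX1 had 9135 UMIs in 3141 cells and MSX2 had 141638 UMIs in 14463 cells. Levels are UMIs of a gene per 1000000 UMIs (CPM) over all cells that a library held of a type, and levels were not compared between genes.

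Cells were clustered within each day with MSX1, MSX2 and the pathway genes named here left out of the features, although genes that vary with them, such as CDX4, stayed in. Clusters were named from the study's marker genes, so a type is called trophoblast-like, endoderm-like, ExE-Mech-like (extraembryonic mesenchyme), Epi-like (epiblast), transition-like, mesoderm-like or amnion-like. Clusters that mixed markers of several classes stayed unnamed, which took up to 26.4% of the cells of a library. In trophoblast-like cells all 12 trophoblast markers had UMIs in all 11 libraries, and CGA, a placental hormone subunit, was at 1935 to 11366 CPM. These markers also named the clusters, so this is a description. All 12 had UMIs in ExE-Mech-like cells too, in each library that held them, with CGA at 37.9 to 311 CPM. Within a day and genotype, each type was compared with the average of the remaining types with edgeR's quasi-likelihood test, two-sided, on these sums with the library as a block. The p-values were Benjamini-Hochberg adjusted over all genes, and a gene was called at a false discovery rate of 1%. Differences are log2 values with their standard error. Because the types were formed from these same cells, such tests describe how sharply a type stands apart from the others. The thresholds for naming clusters were also set after the MSX1 and MSX2 levels of clusters had been seen. The tests of Day 10 and Day 12 include sums of Epi-derived cells, the class in which MSX1 was chosen. Their p-values are therefore descriptions and no independent support. Where 1 library alone holds a type, its sum is assumed to vary like those of the other types, and the test describes that library. At Day 14 the sums of Epi-derived cells are those on which MSX1 was chosen, so the differences of MSX1 and MSX2 between types of that day are given as a description with no test.

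In wild-type Day 14 embryos MSX1 was highest in amnion-like and mesoderm-like cells and lowest in Epi-like and trophoblast-like cells. Amnion-like cells had 116 and 167 CPM of MSX1 in replicates 1 and 2, from 41 and 13 cells. Mesoderm-like cells had 128 and 139.7 CPM, from 187 and 38 cells, so the ranges of these 2 types overlapped. Transition-like cells, which share genes with epiblast and mesoderm, had 52.9 and 59.2 CPM and lay below both. Next in order were ExE-Mech-like cells with 22.8 and 15.9 CPM and endoderm-like cells with 5.45 and 3.98 CPM. Epi-like cells had 3.45 CPM in replicate 1 and no UMI in replicate 2, where 3 UMIs would have been 5.35 CPM. Trophoblast-like cells had 1.16 and 0.709 CPM, within the range of the Epi-like cells. The other neighbours in this order did not overlap, although the Epi-like and endoderm-like levels of replicate 2 cannot be separated at this depth.

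The fitted differences from the mean of the other types put these levels on the log2 scale. MSX1 was higher by 3.52 in amnion-like cells, by 3.50 in mesoderm-like cells and by 2.10 in transition-like cells. It differed by 0.31 in ExE-Mech-like, −2.05 in endoderm-like, −2.77 in Epi-like and −4.61 in trophoblast-like cells. Of all genes tested, 2.77% in amnion-like, 3.35% in mesoderm-like, 5.10% in transition-like, 17.4% in ExE-Mech-like, 16.4% in endoderm-like, 9.03% in Epi-like and 31.6% in trophoblast-like cells were called, from which nothing is read for MSX1 or MSX2. Leaving out a library kept the sign in all 7 types, but the sizes moved, since in replicate 2 the Epi-like sum held no MSX1 UMI and pulled down the mean of the other types. On that library alone the amnion-like difference was 5.35, the endoderm-like one −0.87 and the ExE-Mech-like one 1.45. When clusters were formed without integration of the libraries, no amnion-like type could be formed at wild-type Day 14.

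**Figure D1:**
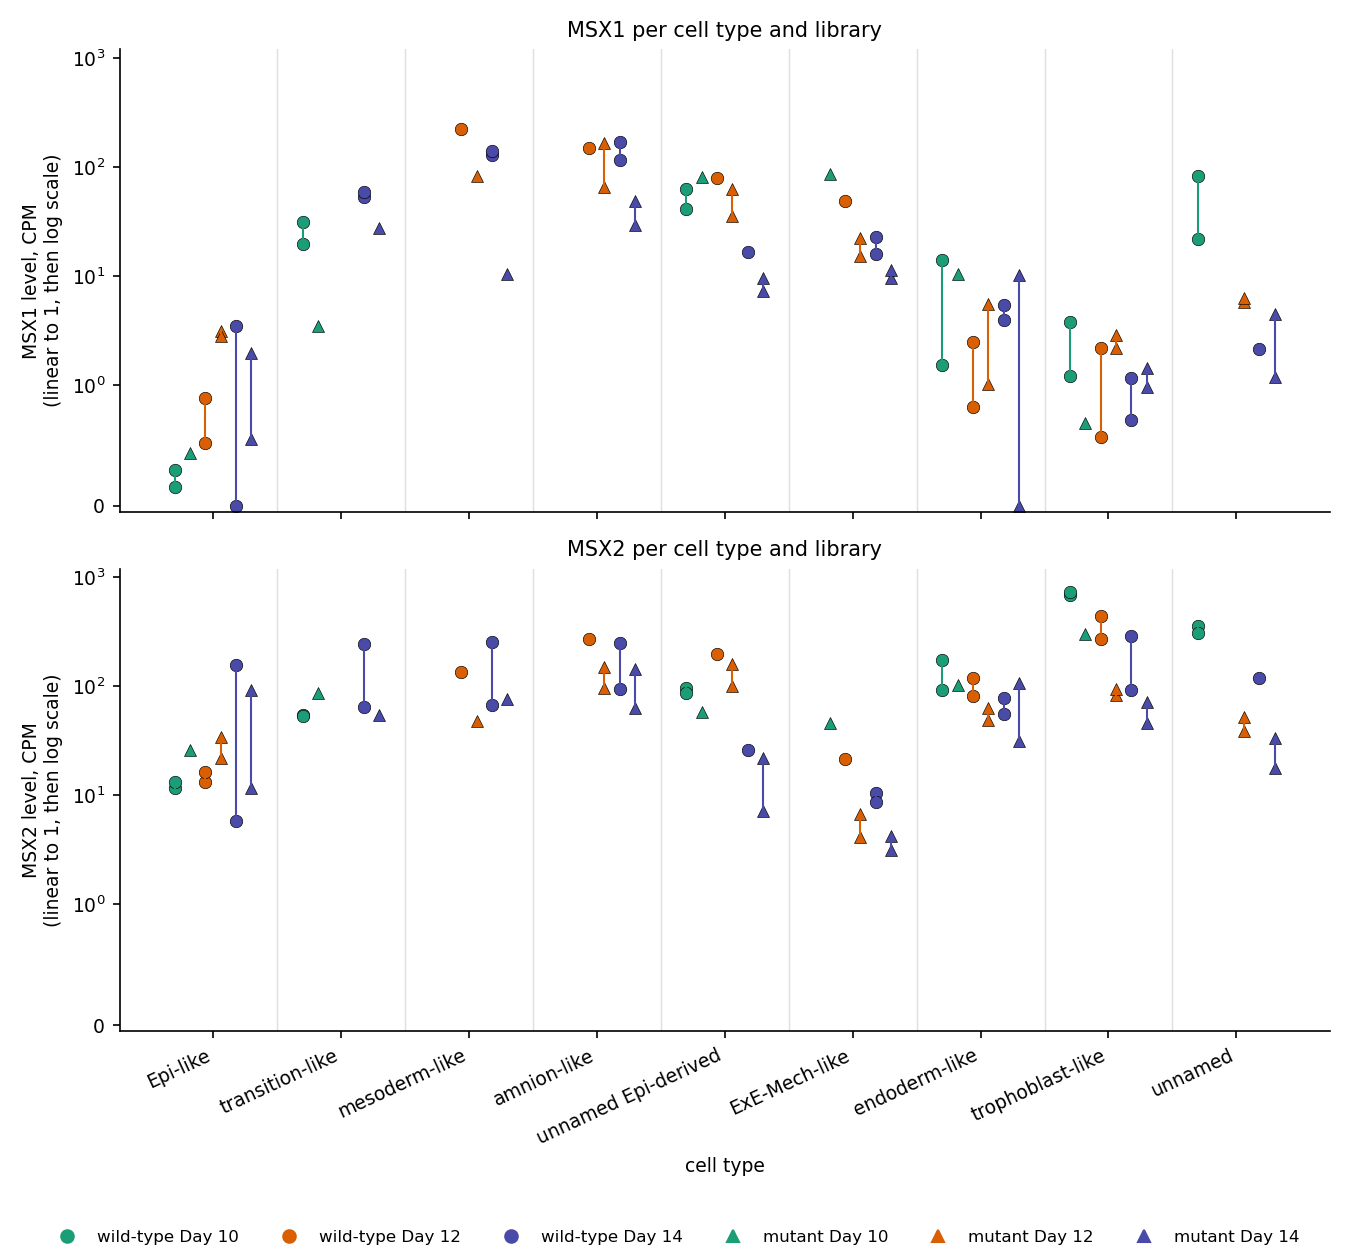
Level of MSX1 (top) and MSX2 (bottom) in CPM, linear up to 1 and on a log scale above, for every cell type on the x axis. Each point is 1 library, circles are wild-type and triangles mutant, colors mark Day 10, Day 12 and Day 14, and a line joins the 2 libraries of a group. MSX1 is highest in mesoderm-like and amnion-like cells, up to 222 CPM, and stays under 4 CPM in trophoblast-like cells, while MSX2 reaches 727 CPM in trophoblast-like cells of wild-type Day 10.

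At wild-type Day 10 no cluster met the rule used here for amnion-like or mesoderm-like cells, and MSX1 was found in cells that the markers did not place. The study itself reported amnion cells with WNT6 and ISL1 at Day 10. It also described Day 10 cells with MIXL1 and MESP1, which it proposes are extraembryonic mesoderm, a class that the marker lists used here lack. Whether the unnamed cells hold either population was not tested. Unnamed Epi-derived cells had 62.7 and 41.03 CPM of MSX1, and the Day 10 cluster that held them was led by HAND1, PTGR1, CALCB, MESP1 and the endoderm marker APOA1, with BMP4 among the next genes. The unnamed cells outside the Epi-derived class had 21.6 and 81.7 CPM. Transition-like cells had 19.6 and 31.4 CPM, which overlapped only with the unnamed cells. Endoderm-like cells had 1.53 and 14.0 CPM, trophoblast-like cells 1.20 and 3.77 CPM, which overlapped, and Epi-like cells 0.155 and 0.30 CPM, the lowest of the day in both libraries. The unnamed cells came from 3 clusters with pooled MSX1 levels of 53.9, 38.9 and 74.2 CPM and pooled MSX2 levels of 357, 479.5 and 111 CPM, with HAND1, S100A14, S100A16 or keratins among their leading genes. MSX1 was above the trophoblast-like level and MSX2 above the Epi-like level in each of the 3.

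Of the 6 types tested at wild-type Day 10, MSX1 was called higher in unnamed Epi-derived cells, by 3.29 ± 0.44 (edgeR adjusted p = 6.1e-04), against 9.70% of all genes called. This value was 2.17 without replicate 1 and 4.38 without replicate 2. MSX1 was also higher in the unnamed cells, by 3.15 ± 0.38 (adjusted p = 1.3e-04), against 26.9%. It was lower in Epi-like cells, with −6.10 ± 0.84 (adjusted p = 3.2e-04), against 26.2%. Differences that were not called were 1.98 ± 0.50 in transition-like cells (adjusted p = 0.018), against 11.2% of all genes, −1.99 ± 0.58 in trophoblast-like cells (adjusted p = 0.017), against 32.4%, and −0.33 ± 0.71 in endoderm-like cells (adjusted p = 0.74), against 28.5%. The endoderm-like value turned to 0.40 without replicate 1. DESeq2 called the transition-like and trophoblast-like values (adjusted p = 0.00094 and 0.00044).

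At wild-type Day 12 most types came from replicate 2, since replicate 1 held no cluster of amnion-like, mesoderm-like or ExE-Mech-like cells with at least 5 cells. There MSX1 reached 222 CPM in 29 mesoderm-like cells, the highest level of MSX1 in any type and library, and 148 CPM in 18 amnion-like cells. Unnamed Epi-derived cells had 78.8 CPM, part of them in a cluster led by CDX1, CDX2 and CDX4, and ExE-Mech-like cells 48.5 CPM. Endoderm-like cells had 0.818 and 2.47 CPM in the 2 replicates. Trophoblast-like cells had 0.567 and 2.19 CPM and Epi-like cells 0.524 and 0.888 CPM, where 1 and 2 UMIs were counted. The last 3 types overlapped in range. MSX1 was called in 2 of the 3 types found in both libraries and in each of the 3 found in replicate 2 alone. In mesoderm-like cells, 1 of the latter, it was higher by 4.62 ± 0.26 (edgeR, adjusted p = 1.5e-04), where 0.862% of all genes were called. In amnion-like cells it was higher by 3.94 ± 0.30 (adjusted p = 0.0020), against 0.390%, and in ExE-Mech-like cells by 2.11 ± 0.29 (adjusted p = 0.0024), against 6.02%. It was lower in Epi-like cells with −4.38 ± 0.57 (adjusted p = 0.0019), against 7.84%, and lower in trophoblast-like cells with −3.24 ± 0.43 (adjusted p = 7.4e-04), against 20.5%. The endoderm-like difference of −3.05 ± 0.62 was not called (adjusted p = 0.012), against 8.78%, but passed with no filter on low counts, with uncorrected counts and with the unnamed Epi-derived cells included, which the fit left out as found in 1 library (adjusted p = 0.00099, 0.0089 and 0.0046). For the mesoderm-like, amnion-like and ExE-Mech-like cells the test rests on 1 library and on the spread of the other types, and says nothing of a second embryo pool. Without the library block the amnion-like, ExE-Mech-like and Epi-like calls were lost (adjusted p = 0.018, 0.026 and 0.015), and without integration the Epi-like call was lost (adjusted p = 0.20).

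MSX2 was distributed differently. At wild-type Day 10 its level was 687 and 727 CPM in trophoblast-like cells, the highest of any type and library. The unnamed cells followed with 353.7 and 309.5 CPM, and endoderm-like cells with 92.1 and 174 CPM overlapped with unnamed Epi-derived cells at 96.8 and 86.8 CPM. Transition-like cells had 53.9 and 53.4 CPM and Epi-like cells 11.6 and 13.2 CPM, and both lay apart from their neighbours in the order. MSX2 was called higher in trophoblast-like cells, by 3.31 ± 0.16 (edgeR adjusted p = 1.6e-07), and in the unnamed cells, by 2.00 ± 0.16 (adjusted p = 9.7e-06). It was called lower in Epi-like cells, with −3.76 ± 0.25 (adjusted p = 3.9e-06), and in transition-like cells, with −1.29 ± 0.22 (adjusted p = 0.0028). The shares of all genes called in these types are those given for MSX1. In unnamed Epi-derived cells (−0.47 ± 0.20, adjusted p = 0.14) and endoderm-like cells (0.22 ± 0.20, adjusted p = 0.41) MSX2 was not called.

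At wild-type Day 12 trophoblast-like cells had 442 and 273 CPM of MSX2, endoderm-like cells 120.2 and 81.5 CPM and Epi-like cells 13.1 and 16.4 CPM, 3 ranges that did not overlap. In replicate 2 alone, amnion-like cells had 273 CPM, as much as the trophoblast-like cells of that library, unnamed Epi-derived cells 199 CPM, mesoderm-like cells 135 CPM and ExE-Mech-like cells 21.7 CPM. MSX2 was called higher in trophoblast-like cells, by 2.40 ± 0.20 (edgeR adjusted p = 6.3e-05), against 20.5% of all genes called. It was lower in Epi-like cells (−3.08 ± 0.27, adjusted p = 3.2e-04), against 7.84%, and in the ExE-Mech-like cells of replicate 2 (−2.23 ± 0.33, adjusted p = 0.0034), against 6.02%. The ExE-Mech-like call was lost at a coarser cluster resolution, without integration and without the library block (adjusted p = 0.031, 0.016 and 0.044). In amnion-like cells the difference of 2.06 ± 0.27 missed the threshold (adjusted p = 0.012) but was called by DESeq2 (adjusted p = 7.5e-06), with the counts before correction for free RNA (adjusted p = 0.0017), with no filter on low counts (adjusted p = 9.3e-10) and without the 2 trophoblast-like and 1 Epi-like cluster of Day 12 that lacked leading markers of their own class and had 1 of another (adjusted p = 0.0021). It was not called in mesoderm-like (0.82 ± 0.28, adjusted p = 0.24) or endoderm-like cells (0.03 ± 0.25, adjusted p = 0.99).

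At wild-type Day 14 the 2 libraries disagreed about MSX2. Replicate 2 was higher than replicate 1 in trophoblast-like cells (93.1 and 288 CPM in replicates 1 and 2), amnion-like cells (94.9 and 249 CPM), mesoderm-like cells (67.0 and 257 CPM) and transition-like cells (64.9 and 246 CPM). Epi-like cells differed too, with 5.78 CPM in 191 cells and 157 CPM in 22 cells. Endoderm-like cells had 55.4 and 77.6 CPM and ExE-Mech-like cells 10.5 and 8.70 CPM. Down this order the ranges of neighbours overlapped except between endoderm-like and ExE-Mech-like cells. The fitted difference from the other types was −3.22 in ExE-Mech-like cells, 1.40 in trophoblast-like cells and between −0.96 in Epi-like and 1.15 in amnion-like cells for the other 5 types. Without replicate 1 the Epi-like difference turned to 0.48, and without replicate 2 the endoderm-like one turned to 0.60.

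The share of cells with a UMI gave the same contrast between the genes. Cells with at least 5000 UMIs were thinned to 5000 each. Cells under 5000 were left out, among them 1137 of the 9625 cells of mutant Day 14 replicate 1. After thinning, 0% to 1.56% of trophoblast-like and 0% to 4.11% of Epi-like cells of a library had an MSX1 UMI. Whether these few counts are background was not tested. At wild-type Day 14 the shares were 35.0% (95% exact interval 20.6% to 51.7%) and 38.5% (13.9% to 68.4%) of amnion-like cells and 40.9% (33.7% to 48.3%) and 36.8% (21.8% to 54.0%) of mesoderm-like cells. Without thinning the shares of these 4 were 70.7%, 100%, 79.1% and 86.8%, at median depths of 29334, 18136, 40987 and 22168 UMIs per cell, against 1.15% to 14.1% in trophoblast-like cells at 11415 to 143737 UMIs. MSX2 had a UMI in 91.6% and 88.8% of thinned trophoblast-like cells at wild-type Day 10. The shares for Day 12 were 67.1% and 57.4%, and those for Day 14 28.1% and 64.3%. ExE-Mech-like cells had 1.32% to 15.5% after thinning and 4.15% to 82.8% before it, at 10043 to 90223 UMIs per cell. Most wild-type trophoblast-like cells of Day 10 thus had an MSX2 UMI at this depth, while the highest share for MSX1 was 51.7% (32.5% to 70.6%), in mesoderm-like cells of wild-type Day 12. Intervals cover counting error only, since cells of a library are not replicates.

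Within trophoblast the level of MSX2 differed between clusters. Over the 32 trophoblast-like clusters of both genotypes MSX2 ranged from 296 to 1354 CPM in 6 clusters at Day 10 (median 436), from 2.60 to 1056 CPM in 12 clusters at Day 12 (median 132) and from 3.50 to 329 CPM in 14 clusters at Day 14 (median 61.3). In 3 of these clusters, 1 of Day 10 at 1354 CPM and 2 of Day 12 at 2.60 and 1056 CPM, no trophoblast marker and 1 marker of another class was among the leading genes. They are called uncertain below for that reason alone. Their levels of trophoblast genes were high. The clusters with 1354 and 1056 CPM of MSX2 had 19131 and 45701 CPM of CGA and 1257 and 1364 CPM of GATA3. Some kept clusters, such as that of Day 10 at 640.0 CPM, also had no trophoblast marker among their leading genes. Without the 3, left out after the data were seen, MSX2 ranged from 296 to 640.0 CPM at Day 10 (median 352) and from 6.76 to 423 CPM at Day 12 (median 132). At Day 12 and Day 14 the lowest levels were in clusters rich in LAIR2, a gene of invasive extravillous trophoblast. At Day 14 the 3 clusters with the most LAIR2, 6217, 5280.5 and 3131 CPM, had 3.50, 3.67 and 5.48 CPM of MSX2 in that order. At Day 12 the LAIR2-richest of the clusters other than those 3, with 3139 CPM, had 6.76 CPM of MSX2, and the uncertain cluster with 2.60 CPM had 3819.9 CPM of LAIR2. Clusters with PAGE4, a gene of villous cytotrophoblast, among their leading genes lay between 131 and 169 CPM of MSX2 at Day 12 and Day 14, and those with NPPB among their leading genes between 99.3 and 423 CPM. The uncertain clusters with 1354 and 1056 CPM shared LITAF among their leading genes and held 85 and 153 cells. These levels pool both genotypes, and the genotypes differed in level and in their share of a cluster. The cluster with 1056 CPM was at 1379 CPM in wild-type and 343 CPM in mutant cells, while 985 of the 1014 cells of the Day 12 cluster with 6.76 CPM were mutant. Pearson's r of log2(CPM + 25) over the 32 clusters was −0.69 with LAIR2, 0.56 with GATA3, a trophoblast transcription factor, 0.18 with PAGE4 and 0.17 with CGA, as a description, since clusters share libraries. Over the 29 without the 3 uncertain clusters these were −0.66, 0.30, 0.31 and 0.015, so the value for GATA3 rests on those clusters. MSX1 did not vary in this way and stayed between 0 and 3.38 CPM in all 32.

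**Figure D2:**
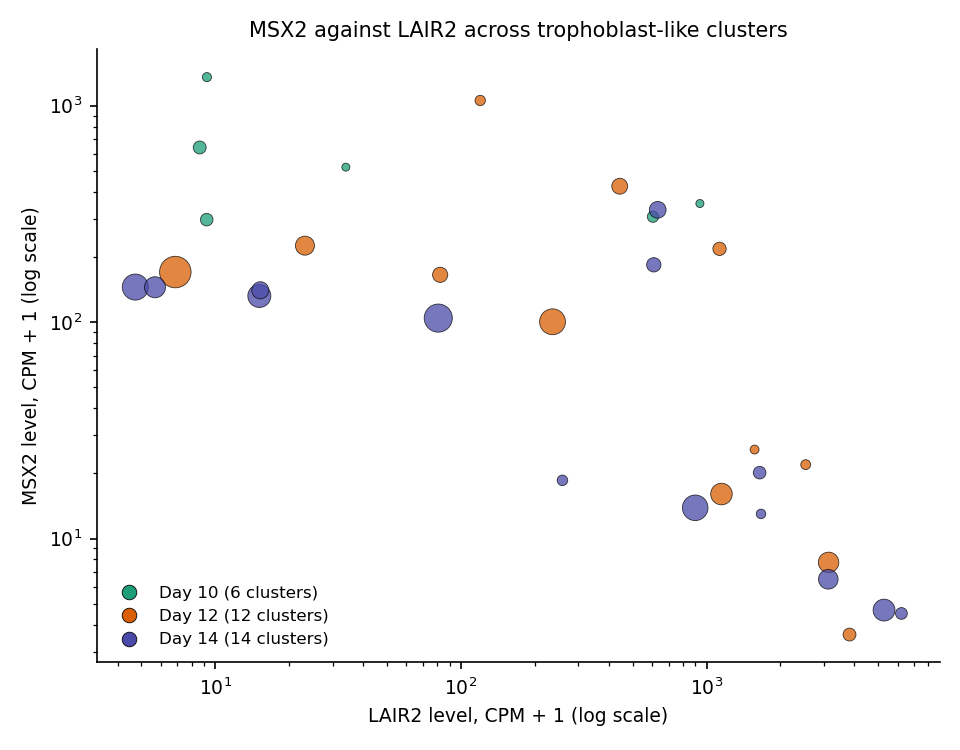
MSX2 against LAIR2, both as CPM + 1 on log scales, across the 32 trophoblast-like clusters of both genotypes, the 3 uncertain ones included. Each point is 1 cluster, its area grows with the number of cells and its color marks the day. The clusters with 3131 CPM of LAIR2 or more have 6.76 CPM of MSX2 or less, and the clusters of Day 10 all lie at 296 CPM of MSX2 or above.

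From Day 10 to Day 14 the wild-type trophoblast-like level of MSX2 went from 687 and 727 CPM over 442 and 273 CPM to 93.1 and 288 CPM, and the libraries of Day 10 and Day 14 did not overlap. The difference between Day 14 and Day 10 was −1.98 ± 0.53, which edgeR did not call (adjusted p = 0.10). It was −1.44 without Day 14 replicate 1 and −2.86 without Day 14 replicate 2. No gene of 12496 was called there, that is 0.00%, with 2543 at an unadjusted p under 0.05, while DESeq2 called 1023 genes including MSX2 (adjusted p = 0.0031; 0.0031 to 0.39 over the alternatives). MSX1 differed by −1.39 ± 0.81 (adjusted p = 0.40), and by −0.37 without Day 10 replicate 2. Markers of other types moved with the day in the same sums. APOA1, an apolipoprotein of endoderm, was at 252 and 224 CPM at Day 10 and 26.9 and 36.2 CPM at Day 14, and the summed Epi-derived markers, 10 or 11 of 11 with a UMI, were at 306 and 294 against 95.6 and 113 CPM. Their part in the difference was not tested. In endoderm-like cells MSX2 differed by −1.03 ± 0.43 (adjusted p = 0.57), again with 0.00% of genes called by edgeR, 722 genes at an unadjusted p under 0.05, 33 called by DESeq2 and 2 with the batch as a block. MSX1 was too low there to be tested. In the Epi-derived cells as a whole MSX1 was at 16.0 and 11.8 CPM at Day 10, 0.524 and 81.2 CPM at Day 12 and 61.0 and 83.6 CPM at Day 14. MSX2 was at 35.7 and 31.9, 13.1 and 118, and 43.9 and 231 CPM. Both genes were thus higher in each Day 14 library than in each Day 10 library, by fitted differences of 2.37 for MSX1 and 2.00 for MSX2. The MSX2 value rests on Day 14 replicate 2 and was 0.41 without it, while that of MSX1 was 2.13 to 2.63 when a library was left out in turn. The Day 14 sums are also those of the contrast that chose the genes, so no test is given. The Day 12 libraries stood apart, since replicate 1 held 14 Epi-like cells and no other Epi-derived cells.

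In mutant embryos the cell types were compared in the same way. At mutant Day 12 amnion-like cells had 65.9 and 165 CPM of MSX1, unnamed Epi-derived cells 35.8 and 62.5 CPM, ExE-Mech-like cells 22.2 and 15.3 CPM, and every other type with 2 libraries was under 7 CPM. MSX1 was called in 6 of the 8 types tested there. It was higher in amnion-like cells, by 3.51 ± 0.26 (edgeR adjusted p = 1.1e-06), against 10.1% of all genes. It was also higher in unnamed Epi-derived cells (2.12 ± 0.27, adjusted p = 1.3e-04), against 11.2%, and in the mesoderm-like cells of 1 library (3.13 ± 0.50, adjusted p = 0.0037), against 1.17%. The mesoderm-like call was lost at a coarser cluster resolution, without integration and without the library block (adjusted p = 0.14, 0.017 and 0.010). MSX1 was called lower in Epi-like cells (−2.07 ± 0.46, adjusted p = 0.0028), against 28.5%, a call that was lost at a coarser cluster resolution (adjusted p = 0.028), and in trophoblast-like cells (−2.64 ± 0.40, adjusted p = 8.5e-05), against 40.0%. The endoderm-like difference, also called, was −3.27 ± 0.73 (adjusted p = 0.0033), against 22.8%, and rests on 2 UMIs in each library (1.03 and 5.55 CPM), with −1.49 without replicate 1. MSX1 was not called in ExE-Mech-like cells (0.65 ± 0.27, adjusted p = 0.073), against 27.4%, or in the unnamed cells outside the Epi-derived class (−1.43 ± 0.52, adjusted p = 0.074), against 9.64%.

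MSX2 at mutant Day 12 was at 83.9 and 95.1 CPM in trophoblast-like cells and 95.5 and 149 CPM in amnion-like cells, so these 2 types were side by side, and at 99.6 and 161 CPM in unnamed Epi-derived cells, whose range overlapped that of the amnion-like cells. MSX2 was called in 4 of the 8 types. It was higher in amnion-like cells (1.52 ± 0.19, adjusted p = 7.6e-05), against 10.1% of all genes called, in unnamed Epi-derived cells (1.62 ± 0.17, adjusted p = 2.0e-05), against 11.2%, and in trophoblast-like cells (1.14 ± 0.16, adjusted p = 4.3e-05), against 40.0%. It was lower in ExE-Mech-like cells (−3.56 ± 0.23, adjusted p = 4.9e-08), against 27.4%. In Epi-like cells the difference was −0.77 ± 0.22 (adjusted p = 0.012), which passed with DESeq2, with uncorrected counts, with no filter and without integration (adjusted p = 0.00016 to 0.0059). In endoderm-like, mesoderm-like and unnamed cells it was between −0.17 and 0.14 without a call (adjusted p = 0.68 to 1.00).

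At mutant Day 14 amnion-like cells again had the highest MSX1 of the types with 2 libraries, 29.0 and 49.0 CPM. The fitted difference from the other types was 2.90 in amnion-like cells, −2.83 in trophoblast-like cells, with 0.984 and 1.43 CPM, and −2.63 in Epi-like cells. Without replicate 1 these became 5.15, −0.86 and −0.20, in a library whose endoderm-like sum held no MSX1 UMI, so the lower values rest on replicate 1. The differences in the other 6 types lay between −1.94 in unnamed and 2.29 in transition-like cells, and the mesoderm-like and transition-like values rest on 1 library. Without replicate 1 the unnamed value turned to 1.00 and the endoderm-like value, 0.97 without replicate 2, to −9.55, so neither direction held in both libraries. Of all genes tested, 9.48% in amnion-like, 19.4% in trophoblast-like, 9.96% in Epi-like, 12.3% in ExE-Mech-like, 7.93% in endoderm-like, 0.363% in mesoderm-like, 0.382% in transition-like, 4.35% in unnamed and 0.0186% in unnamed Epi-derived cells were called, and nothing is read from these shares for the members.

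MSX2 at mutant Day 14 was at 62.8 and 143 CPM in amnion-like cells, 46.3 and 70.9 CPM in trophoblast-like cells, 11.6 and 93.2 CPM in Epi-like cells and 4.19 and 3.13 CPM in ExE-Mech-like cells. The fitted difference from the other types was −3.69 in the last of these, 1.61 in amnion-like, 0.66 in trophoblast-like and 0.46 in Epi-like cells, and the last turned to −1.38 without replicate 2. In the other 5 types it lay between −1.27 in unnamed Epi-derived and 1.33 in mesoderm-like cells. In the single mutant library of Day 10, MSX1 was highest in ExE-Mech-like cells (86.8 CPM) and unnamed Epi-derived cells (79.9 CPM) and MSX2 in trophoblast-like cells (303 CPM), with no replicate to test against.

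The contrast that chose the genes is described next, with no test of MSX1, MSX2 or ISL1. In Epi-derived cells at Day 14, MSX1 was at 61.0 and 83.6 CPM in the wild-type libraries and at 14.2 and 18.1 CPM in the mutant libraries. The groups did not overlap, and the fitted difference was −2.13 (−2.37 to −1.86 when a library was left out in turn). MSX2 was at 43.9 and 231 CPM in wild-type and 38.8 and 108 CPM in mutant libraries, which overlapped between genotypes but were lower in the mutant within each batch, and its fitted difference of −0.81 was −0.61 with the batch as a block and turned to 0.75 without wild-type replicate 2. At Day 12 mutant libraries had 21.3 and 81.9 CPM of MSX1. Wild-type replicate 1, which held 14 Epi-derived cells, had 0.524 CPM and replicate 2 had 81.2 CPM. At Day 10 the mutant library had 11.5 CPM against 16.0 and 11.8 CPM in wild-type, just below both. A wide gap in the sum over all Epi-derived cells was thus seen at Day 14 and not at Day 10. In these sums, fewer cells of a type and fewer molecules per cell cannot be told apart, and each was therefore looked at in turn.

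The mix of cells differed at Day 14. Of the Epi-derived cells, 32.9% and 33.6% were mesoderm-like in wild-type replicates 1 and 2 against 5.75% and 1.85% in mutant replicates 1 and 2. Amnion-like cells made up 7.22% and 11.5% in wild-type and 49.9% and 47.2% in mutant libraries, and transition-like cells 22.5% and 35.4% against 2.67% and 3.70%. The 49.9% of mutant replicate 1 rests largely on 1 shallow cluster that held hardly any cells of the other libraries. It held 200 of the 243 amnion-like cells of that library and 14 of its MSX1 UMIs, and 43 amnion-like cells remain without it. Mesoderm-like cells held 68.8% and 55.8% of the 1643 and 226 MSX1 UMIs of the wild-type libraries. In the mutant libraries, with 61 and 49 MSX1 UMIs, they held 4.92% and 0%, and amnion-like cells held 80.3% and 91.8%. For MSX2 the mesoderm-like share of UMIs was 50.1% and 37.1% in wild-type and 13.3% and 4.42% in mutant libraries. These shares are of clusters built from all libraries of the day, and the genes that define a cluster may themselves differ with genotype.

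**Figure D3:**
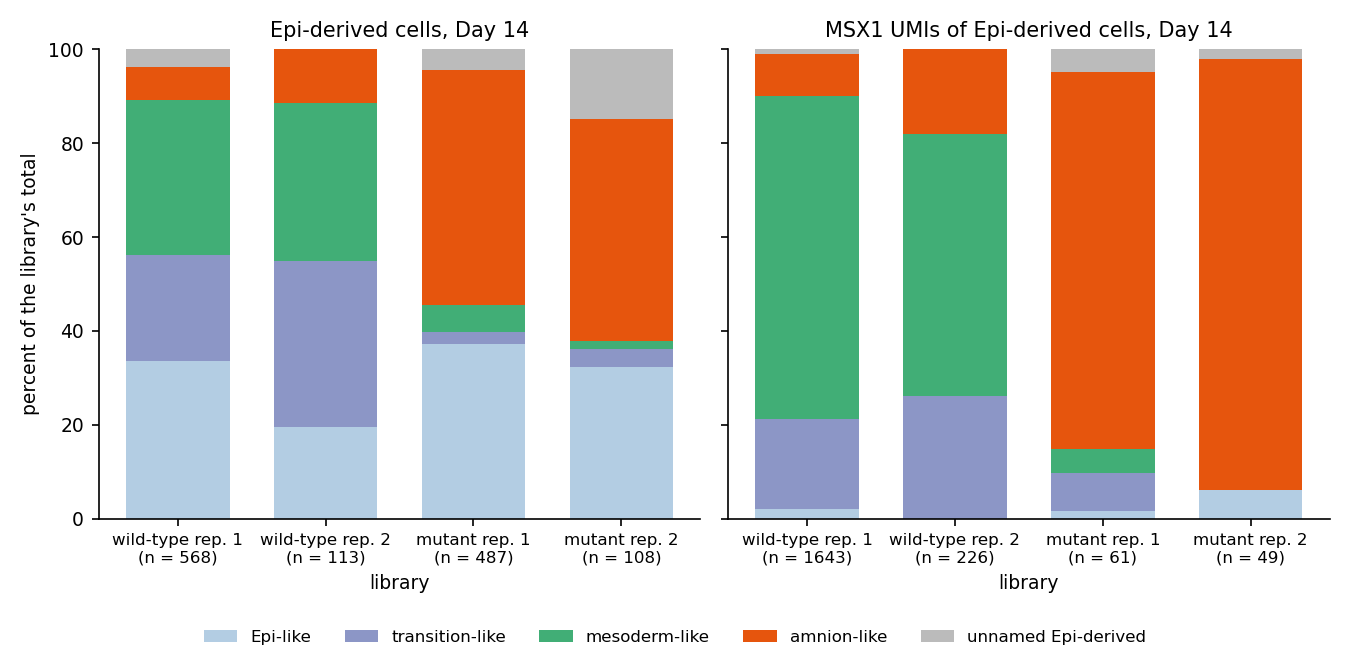
Composition of the Epi-derived cells of the 4 Day 14 libraries (left, percent of cells) and of their MSX1 UMIs (right, percent of UMIs), stacked by cell type, with n cells or UMIs under each bar. Mesoderm-like cells are 32.9% and 33.6% of the wild-type cells and carry 68.8% and 55.8% of their MSX1 UMIs, while in the mutant libraries amnion-like cells carry 80.3% and 91.8%. In mutant replicate 1, 200 of the 243 amnion-like cells belong to 1 shallow cluster found almost only in that library.

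Levels of MSX1 were also looked at within each type. At Day 10 transition-like cells had 3.49 CPM in the mutant library, from 10 UMIs in 42 cells, against 19.6 and 31.4 CPM in wild-type. The other Epi-derived types of that day were not lower, with 79.9 against 62.7 and 41.03 CPM in unnamed Epi-derived cells and 0.435 against 0.155 and 0.30 CPM in Epi-like cells. Outside the Epi-derived class, trophoblast-like cells of Day 10 were lower in the mutant, with 0.687 against 1.20 and 3.77 CPM. Endoderm-like cells had 10.4 against 1.53 and 14.0 CPM. At Day 14 MSX1 levels were lower in the mutant in amnion-like and mesoderm-like cells and in the 13 transition-like cells of mutant replicate 1, with 27.4 CPM from 5 UMIs against 52.9 and 59.2 CPM in wild-type. In Epi-like cells the genotypes overlapped, at 3.45 and 0 CPM in wild-type and 0.554 and 1.97 CPM in mutant libraries. Amnion-like cells had 116 and 167 CPM of MSX1 in wild-type and 29.0 and 49.0 CPM in mutant libraries. They came from different clusters, since 200 of the 243 amnion-like cells of mutant replicate 1 lay in 1 shallow cluster with 10.6 CPM of MSX1, a median of 4344 UMIs per cell in that library, and hardly any cells of the other libraries. Without that cluster, an alternative added after the data were seen, MSX1 was at 117 and 167 CPM in wild-type and 93.7 and 49.0 CPM in mutant amnion-like cells, still without overlap but with a smaller gap. Markers of other types moved with genotype here. CGA was at 56.2 and 12.3 CPM in wild-type and 716 and 83.9 CPM in mutant amnion-like cells, the summed trophoblast markers (10 to 12 of 12 with a UMI) at 221 to 283 against 692 to 1843 CPM, and the summed ExE-Mech markers (3 and 8 of 10, and 10 of 10) at 65.3 to 531 against 1136 to 2192 CPM. POU5F1, a pluripotency factor, was at 892 and 1425 against 203 and 619.8 CPM. Their part in the MSX1 difference was not tested.

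Mesoderm-like cells of mutant Day 14 were found in numbers of at least 5 in replicate 1 alone, where 28 cells had 10.3 CPM of MSX1 from 3 UMIs, against 128 and 139.7 CPM in wild-type. In the cluster led by FABP7 and CDX1, wild-type cells had 139 and 135 CPM and mutant cells 9.55 CPM from 23 cells. After thinning, 0 of 25 mutant mesoderm-like cells had an MSX1 UMI, where the exact 95% interval for cells with a UMI at this depth reaches 13.7%, against 40.9% and 36.8% in wild-type. Before thinning 3 of the 28 cells, 10.7%, had one (interval to 28.2%), at a median of 9788 UMIs per cell against 40987 and 22168 in wild-type, so these are limits on cells with a UMI and not on cells that express the gene. Markers of other types moved with genotype here too. The summed ExE-Mech markers (10 of 10 with a UMI in the mutant, 9 and 5 in wild-type) were at 742 CPM in the mutant against 59.7 and 53.2 CPM, COL3A1, a collagen of mesenchyme, at 189 against 2.82 and 1.11 CPM, the summed endoderm markers (10 of 10, and 8 and 6) at 512 against 286 and 109 CPM, and the summed trophoblast markers (10, and 12 and 12 of 12) at 296 against 162 and 129 CPM. Their part in the MSX1 difference was not tested. MSX2 did not follow in these cells, with 75.6 CPM in the mutant and 67.0 and 257 CPM in the wild-type libraries. At mutant Day 12 mesoderm-like cells had 82.0 CPM of MSX1 in 1 library, between the mutant Day 14 value and the 222 CPM of wild-type Day 12. After thinning, amnion-like cells with an MSX1 UMI were 10.5% (5.56% to 17.7%) and 22.4% (11.8% to 36.6%) at mutant Day 14, 22.2% (12.7% to 34.5%) and 40.6% (30.9% to 50.8%) at mutant Day 12 and 33.3% (13.3% to 59.0%) at wild-type Day 12, so the intervals of the 2 Day 12 genotypes overlapped.

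**Figure D4:**
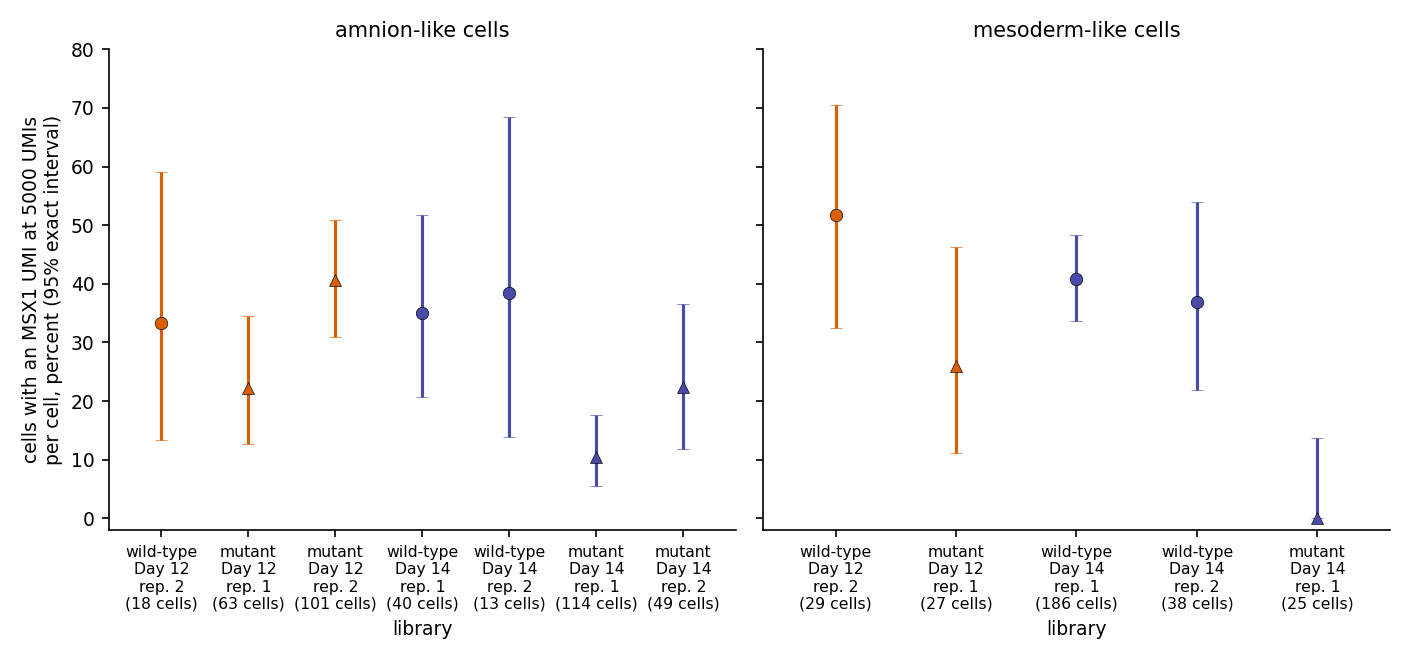
Percent of amnion-like (left) and mesoderm-like (right) cells with an MSX1 UMI after thinning to 5000 UMIs per cell, for each library with such cells. Cells under 5000 UMIs were left out. Points are libraries (circles wild-type, triangles mutant), bars are exact 95% intervals that cover counting error only, and the number of cells used is under each. In mutant Day 14 mesoderm-like cells it is 0 of 25, against 40.9% and 36.8% in wild-type Day 14.

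Outside the Epi-derived cells the contrast between mutant and wild-type embryos had not been used to choose the genes, and it was tested. In trophoblast-like cells MSX2 was lower in every mutant library. At Day 14 it was at 93.1 and 288 CPM in wild-type and 46.3 and 70.9 CPM in mutant libraries, at Day 12 at 442 and 273 against 83.9 and 95.1 CPM, and at Day 10 at 687 and 727 against 303 CPM. The groups did not overlap on any day, which with so few libraries can also happen for a gene that does not differ. At Day 10 the compared cells differ in another way. Unnamed cells outside the Epi-derived class were 26.4% and 25.5% of the wild-type cells and 0.390% of the mutant cells. The part of this in the Day 10 difference was not tested. The differences were −1.61 ± 0.55 at Day 14 (edgeR adjusted p = 0.38) and −2.08 ± 0.35 at Day 12 (adjusted p = 0.15), and neither was called. The Day 14 value rests on wild-type replicate 2 and was −0.74 without it. Markers of other types also differed in these sums. COL3A1, a collagen of mesenchyme, was at 0 and 0.968 against 4.12 and 6.67 CPM in mutant libraries at Day 12 and at 0.847 and 8.03 against 20.2 and 12.1 CPM at Day 14. The summed ExE-Mech markers were at 40.1 and 41.97 against 70.1 and 74.7 CPM at Day 12 and overlapped at Day 14, with 39.7 and 85.6 against 143 and 77.9 CPM, 5 to 10 of the 10 with a UMI. The summed endoderm markers, 8 to 10 of 10 with a UMI, overlapped at Day 12 and were at 146 and 119 against 364 and 230.2 CPM at Day 14. At Day 10 the summed endoderm markers were at 396 and 276 CPM in wild-type and 83.1 CPM in the mutant library, with APOA1 at 252 and 224 against 4.56 CPM. The summed Epi-derived markers were at 306 and 294 against 156 CPM and the summed ExE-Mech markers at 26.8 and 14.8 against 47.9 CPM. CGA, a marker of the type itself, was at 4042 and 1935 against 8029 CPM. Their part in the differences was not tested. edgeR called no gene in either comparison, 0.00% at Day 14 and 0.00% at Day 12, with 1708 and 2206 genes at an unadjusted p under 0.05. DESeq2 called 234 genes at Day 14 and 558 at Day 12, and 3 were called at Day 12 with the batch as a block, with MSX2 among those of DESeq2 at Day 12 (adjusted p = 6.0e-06; 6.0e-06 to 0.95 over the alternatives). Compared cluster by cluster, in clusters with at least 20 cells of each genotype, MSX2 was lower in mutant cells in 3 of 3 clusters at Day 10, 9 of 9 at Day 12 and 13 of 14 at Day 14, with median log2 ratios of −0.72, −1.38 and −0.92. The direction was thus the same within clusters as in the sums, although clusters share libraries and are not replicates. MSX1, not called in these cells, was lower in mutant cells in 3 of 3, 0 of 9 and 4 of 14 of the same clusters. Its direction was thus also uniform at Day 10 and Day 12, and such counts add no support to the sums. In 2 of the Day 12 clusters no trophoblast marker and 1 marker of another list was among the leading genes, and without both, left out after the data were seen, the difference was −1.77 (adjusted p = 0.18), again with no call.

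MSX1 in trophoblast-like cells, at 0.567 to 3.77 CPM over the 11 libraries, differed by 0.34 ± 0.51 at Day 14 (adjusted p = 0.79) and 0.89 ± 0.63 at Day 12 (adjusted p = 0.55), and the first turned to −0.02 without either second replicate of Day 14. In ExE-Mech-like cells at Day 14 MSX1 was at 22.8 and 15.9 CPM in wild-type and 9.56 and 11.3 CPM in mutant libraries (−0.84 ± 0.34, edgeR adjusted p = 0.34), and MSX2 at 10.5 and 8.70 against 4.19 and 3.13 CPM (−1.34 ± 0.36, adjusted p = 0.20). Both genes were lower in both mutant libraries without a call, where 0.00841% of all genes (1 gene) was called, 1726 had an unadjusted p under 0.05 and DESeq2 called 249. With the batch as a block 16 genes were called. In the clusters the genotypes were not evenly mixed, and 747 of the 749 cells of 1 ExE-Mech-like cluster, with a median of 6649 UMIs, were mutant. The summed ExE-Mech markers, all 10 with a UMI in each library, were at 4032 and 7938 CPM in wild-type and 9674 and 13806 CPM in mutant libraries. Markers of other types moved too, the summed Epi-derived ones from 463 and 420 to 1037 and 1108 CPM and the summed trophoblast ones from 505 and 290 to 779 and 515 CPM. At Day 12 the summed trophoblast markers were at 219 against 623 and 397 CPM and CGA at 46.3 against 184 and 208 CPM. Their part in the differences was not tested. At Day 12, with 1 wild-type library, assumed to vary like the 2 mutant libraries, the differences were −1.33 ± 0.27 for MSX1 (adjusted p = 0.19) and −1.95 ± 0.35 for MSX2 (adjusted p = 0.18), against 0.00% of all genes called by edgeR, 1971 at an unadjusted p under 0.05 and 180 called by DESeq2. With no filter on low counts both were called (adjusted p = 0.00024 and 6.7e-06, and 0.20 and 0.19 at the other end of the alternatives). In endoderm-like cells MSX2 was at 55.4 and 77.6 against 31.5 and 107 CPM at Day 14 (−0.11 ± 0.54, adjusted p = 1.00; 0.00% of all genes called by edgeR, 440 at an unadjusted p under 0.05, 29 by DESeq2). At Day 12 it was at 120.2 and 81.5 against 49.3 and 63.8 CPM, without overlap (−0.95 ± 0.40, adjusted p = 0.72; 0.0146% of all genes or 1 gene called, and 9 with the batch as a block). MSX1 was too low for a test there, at 0 to 10.1 CPM in the 8 libraries.

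ISL1 itself, the targeted gene, was at 140.0 and 233 CPM in wild-type and 146 and 193 CPM in mutant amnion-like cells at Day 14, and at 205 against 32.5 and 133 CPM at Day 12. The kit counts 3′ ends and the edit lies near the start of the gene, so this level may check nothing about the edit. ISL1 was at 0.598 to 2.65 CPM in trophoblast-like cells over all libraries, the type with the highest MSX2 at wild-type Day 10. In wild-type Day 14 mesoderm-like cells the libraries differed, since ISL1 was seen in 3 of 186 thinned cells of replicate 1 (2.26 CPM) and 11 of 38 of replicate 2 (69.8 CPM). Of these 14 cells 5 were among the 90 cells with an MSX1 UMI, which is 5.56% of those cells against 6.72% of the cells without MSX1. At wild-type Day 12 it was seen in 3 of 29 thinned mesoderm-like cells, each of them among the 14 without an MSX1 UMI. In amnion-like cells of wild-type Day 14 it was seen in 42.1% of the 19 cells with MSX1 and 41.2% of the 34 cells without it. In mutant amnion-like cells these shares were 52.2% and 49.3% at Day 14 and 40.0% and 27.5% at Day 12. ISL1 was thus counted in thinned amnion-like cells with and without an MSX1 UMI, and in mesoderm-like cells its share depended on the library. Without MSX1 means here no MSX1 UMI after thinning, and such cells may still carry MSX1. Before thinning, 70.7% and 100% of the amnion-like cells of wild-type Day 14 replicates 1 and 2 had an MSX1 UMI. At wild-type Day 14 MSX2 was counted in 57.9% of the thinned amnion-like cells with MSX1 and 38.2% of those without. In mutant amnion-like cells these shares were 56.5% and 26.4% at Day 14 and 47.3% and 45.0% at Day 12. In wild-type Day 14 mesoderm-like cells they were 38.9% and 32.1%, pooled over libraries in which 27.4% and 71.1% of the cells had MSX2. Pearson's r of log2(CPM + 25) over the 33 sums of Epi-derived types with at least 20 cells was 0.53 between MSX1 and ISL1 and 0.41 between MSX2 and ISL1.

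The same measure between MSX1 and MSX2 was 0.66 over those 33 sums and 0.17 over all 66 sums of a type in a library, as descriptions in which sums share libraries. In the plot of both genes trophoblast-like cells had MSX2 with next to no MSX1, and ExE-Mech-like cells had MSX1 with little MSX2. The most similar genes were sought among 1003 genes with a symbol, which come from the study's own lists of genes that differed between these cells. Those most like MSX1 over the 66 sums were CDX4 (r = 0.82), CDX2 (0.80), FABP7 (0.78), AMER2 (0.78) and HOXB2 (0.78). CDX2 and CDX4 are caudal homeobox genes of the posterior embryo and HOXB2 is a HOX gene. Those most like MSX2 were SMAGP (0.70), TMEM54 (0.69), SH2D4A (0.67), GATA3 (0.67) and RAB25 (0.67), where RAB25 is a GTPase of epithelial cells. CDX2, CDX4, SMAGP, TMEM54 and RAB25 were among the markers that named clusters. No gene was shared between the lists of 5.

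**Figure D5:**
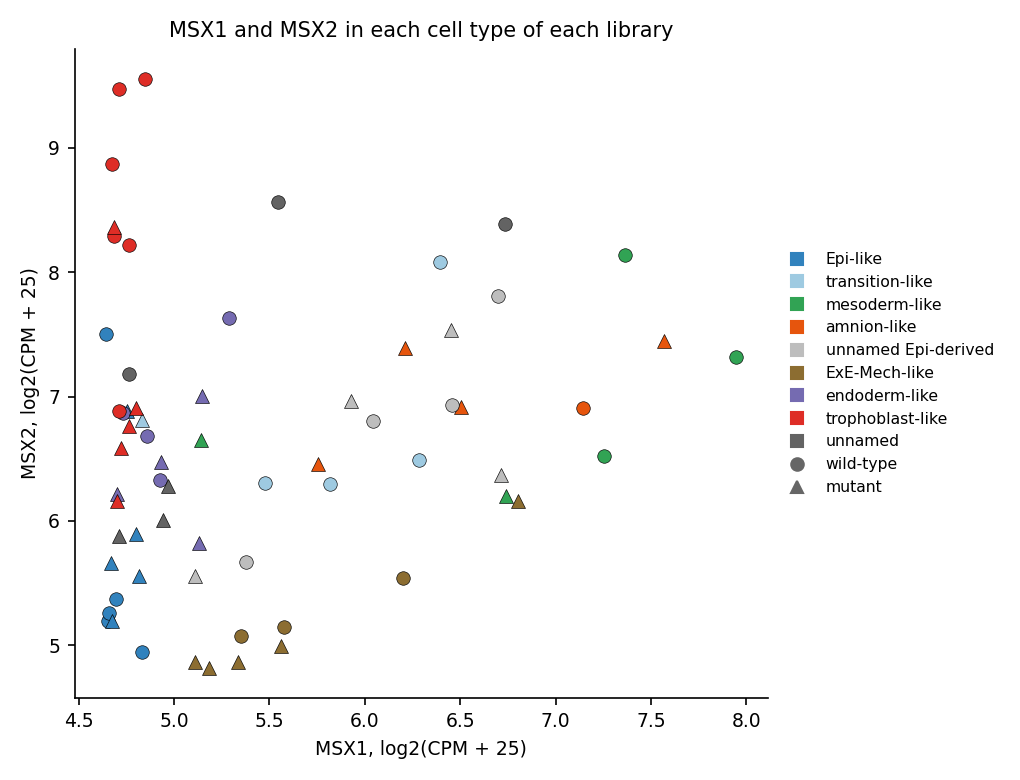
MSX2 against MSX1, each as log2(CPM + 25), in every type of every library with at least 20 cells (66 sums). Color marks the cell type, circles are wild-type and triangles mutant. Trophoblast-like sums spread along the MSX2 axis at low MSX1, ExE-Mech-like sums have low MSX2 at intermediate MSX1, and most amnion-like and mesoderm-like sums are high in both.

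Genes of the BMP and WNT pathways and transcription factors of amnion, trophoblast and surface ectoderm were read from lists chosen with earlier results of these data known. Only genes whose symbol the files pair with an identifier could be used, which left 3 of 11 BMP ligands and antagonists, 0 of 10 receptors and SMADs, 5 of 7 BMP targets, 10 of 15 transcription factors and 5 of 13 WNT genes. Such pairs come only from the study's own lists of genes that differed between types, over pseudotime or with genotype in these same cells. The usable genes were thus favoured in advance to differ. Their counts and medians below describe these genes, and nothing is read from an excess over all genes. In wild-type Day 14 amnion-like cells, where 2.77% of all genes were called, BMP4 was at 385 and 445 CPM and higher by 3.99 ± 0.37 (edgeR adjusted p = 4.3e-05), the 1 of 3 ligands and antagonists called. Of the targets 1 of 5 was called, BAMBI, a decoy receptor that BMP induces, higher by 2.08 ± 0.33 at 582 and 813 CPM (adjusted p = 0.0021), while ID1, an inhibitor of bHLH factors, differed by 1.32 ± 0.58 without a call (adjusted p = 0.24). Of 10 transcription factors 5 were called, all higher: HAND1 by 5.75, DLX5 by 4.21, TFAP2B, with 38.8 and 16.3 CPM against no UMI in endoderm-like cells, TFAP2C and TBX3. Of 5 WNT genes 3 were called higher, the ligands WNT3 by 3.71 and WNT5B by 1.80, and WNT6, with 72.8 and 40.8 CPM and no UMI in 3 other types. The median differences were −1.15 for ligands and antagonists, 1.64 for targets, 2.42 for transcription factors and 1.80 for WNT genes, beside −0.01 over all genes tested. ID2 was called too, making 2 of 5 targets, with DESeq2, with no filter on low counts and with the unnamed cells included, while BAMBI was not called without the library block, making 0 of 5. The count of transcription factors ran from 4 without the library block to 7 at a coarser cluster resolution.

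In mesoderm-like cells of wild-type Day 14, where 3.35% of all genes were called, 2 of 3 ligands and antagonists were called higher, BMP4 by 2.30 ± 0.38 at 154 and 144 CPM (edgeR adjusted p = 0.0024) and the extracellular modulator BMPER at 6.89 and 3.33 CPM, which had no UMI in amnion-like, Epi-like or trophoblast-like cells. None of the 5 targets was called by edgeR or DESeq2, and of these only ID1 (1.48) and ID4 (1.77) had an unadjusted p under 0.05 (adjusted p = 0.15 for ID1). Of the transcription factors 3 of 10 were called higher, HAND1 by 3.66, TBX3 by 2.40 and TFAP2C by 1.97. All 5 WNT genes were called higher, among them the WNT target SP5 by 3.15, WNT6, with 3.27 and 6.65 CPM and no UMI in 3 other types, and WNT8A, with 79.8 and 28.8 CPM. The medians were 2.30, 1.12, 0.72 and 3.15 in the same order of lists, beside 0.04 over all genes tested. Over the alternatives, 0 to 2 ligands and antagonists and 3 to 5 WNT genes were called, the fewest without integration of the libraries.

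In trophoblast-like cells of wild-type Day 14, where 31.6% of all genes were called, BMP4 was lower by the test (−2.40 ± 0.49, edgeR adjusted p = 0.0016) at 13.1 and 2.95 CPM, the 1 of 3 called. Of the targets 2 of 5 were called lower, ID4 (−6.49) and BAMBI (−3.92), and ID1 was at −2.52 (adjusted p = 0.018). Of the transcription factors 6 of 10 were called higher, led by DLX6 (5.26), the trophoblast factor GATA2 (4.70) and DLX5 (4.48), and HAND2 was called lower (−4.03). WNT5B (−5.37) and SP5 (−5.68) were the 2 of 5 WNT genes called, both lower. The medians were −2.40, −2.52, 3.33 and −2.32, beside 0.08 over all genes, and the last is the fitted value of WNT8A, which had 0.166 and 0 CPM there and depends on how zero counts are fitted. Over the alternatives, 0 to 2 ligands and antagonists, 2 or 3 targets and 1 to 3 WNT genes were called lower.

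In the contrast that chose MSX1, mutant against wild-type Epi-derived cells at Day 14, 0.636% of all genes tested (64 genes) were called, and nothing is read from the counts of listed genes there. BMP4 was at 76.05 and 98.4 CPM in wild-type and 78.7 and 89.2 CPM in mutant libraries, with overlap, and none of the 2 ligands and antagonists tested was called. These are sums over types. Amnion-like cells, where BMP4 was called higher in wild-type, held 4.70% and 9.05% of all Epi-derived UMIs in wild-type and 39.4% and 33.8% in mutant libraries. A similar sum is therefore not a similar level within a type, which was not compared here. The study, testing cells, reported BMP4 lower in both mutant amnion populations. ID1 was at 488 and 2179 against 468 and 869 CPM, and none of the 5 targets was called. DLX5 was the 1 of 10 transcription factors called, higher in the mutant at 8.32 and 8.87 against 50.4 and 65.9 CPM, and WNT5B the 1 of 5 WNT genes, lower in the mutant at 129 and 112 against 22.4 and 15.8 CPM. Without the shallow cluster of mutant replicate 1, neither was called, and 3 genes in all were. With the batch as a block 732 genes were called, among them 5 of 10 transcription factors, all higher in the mutant, and 4 of 5 WNT genes, 1 higher and 3 lower.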

How the data were processed

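Libraries were made with the 10x 3′ v3 kit. The authors counted UMIs with Cell Ranger 3.1.0 against the Ensembl annotation of Macaca_fascicularis_5.0, filtered cells on mitochondrial share and genes, and subtracted free RNA with SoupX. The deposited values used here are these corrected counts, treated as estimated counts and already whole, and the deposited counts before correction served as an alternative. The 209 cells in the uncorrected table alone were left out.

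Cells were clustered per day in Seurat 5.3.0 (R 4.3.3) after reciprocal PCA integration (5000 features, 30 components, resolution 0.8), on neighbours in the integrated components and not on a UMAP as in the study. Marker names needed a score of 0.5, at least 3 markers seen in 25% of cells and, among the 10 leading genes, no other class ahead of their own by 2 markers or more. Clusters of all cells also stayed unnamed where another class scored 0.5 or more. Clusters within the Epi-derived cells needed a lead of 0.05 over the best list of another class. These thresholds were set after cluster scores and the MSX1 and MSX2 levels of clusters had been seen. The condition on leading genes was added after the first type tests and left 1 Day 12 cluster of 184 cells unnamed. Trophoblast-like cluster 9 of Day 10 and clusters 13 and 16 of Day 12, and Epi-like clusters E5 and E6 of Day 10 and E7 of Day 12, had 1 leading marker of another class and none of their own, and an alternative added after the data were seen left them out. No doublet caller was run. A type needed 5 cells in a library. The members and lists were chosen with earlier results of these data known.

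UMIs were summed per type and library and fitted with edgeR 4.0.16 (quasi-likelihood, TMM, two-sided, Benjamini-Hochberg over all genes tested, 1%), and the fits were tested on simulated data. DESeq2 1.42.0 was an alternative. Type tests used all types of a day and genotype with the library as a block, with unnamed cells only where both libraries held them (an alternative added after the data were seen included the others), and tests of genotype and day used 1 sum per library. No test of MSX1 or MSX2 is given between types of Day 14, or between genotypes or days in Epi-derived cells, as these include the Day 14 counts on which MSX1 was chosen. Other alternatives were no filter on low counts, size factors, uncorrected counts, another resolution (0.4), no integration, at least 20 cells, no library block, a replicate block and leaving out each library. The block is the batch number that the labels give. The correlation of deviations between libraries of 1 batch number was −0.127 to 0.149 between genotypes and −0.169 to 0.380 between wild-type days, with 0.276 to 0.380 between Day 12 and Day 14. Named genes are MSX1, MSX2, ISL1, BMP4, ID1, up to 3 called genes per list with the largest differences, and the 5 genes most correlated with each member; cluster markers and other called list genes were named after their values were seen. Of the 19367 genes, 1024 were paired with a symbol, all of them from the study's lists of genes that differed between cells of this series. No sequence is shown.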

Additional observations from a re-analysis of the deposited data

How the results depend on the processing

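Of 969 values of the 89 results under the alternatives tried, 858 kept their direction and, where tested, their side of the threshold. Values without a test also had to stay within the spread between replicates. The other 111 changed in direction, in call or, with no test, in size beyond that spread. DESeq2 size factors in edgeR changed none of the 89 and shifted the median of all genes by −0.105 to 0.151 on the log2 scale. Of the 89, 53 have a test and 36 are given without one, among them those of the types of Day 14. Leaving out the shallow amnion-like cluster of Day 14 changed 1 of the 20 values it touches, MSX1 in amnion-like cells of mutant Day 14, which moved to 3.63 by more than the spread between replicates, and leaving out the 6 clusters with more leading markers of another class than of their own changed 1 of 44, both alternatives being chosen after the data were seen. The cause of the changes below was not tested.

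With DESeq2 the values now called were 2.09 for MSX1 in transition-like cells and −2.08 for MSX1 in trophoblast-like cells (wild-type Day 10), 2.08 for MSX2 in amnion-like cells (wild-type Day 12), −0.77 for MSX2 in Epi-like cells (mutant Day 12), −2.10 for MSX2 in trophoblast-like cells (mutant against wild type at Day 12), −1.98 for MSX2 in trophoblast-like cells (Day 14 against Day 10). With no filter on low counts the values now called were 1.95 for MSX2 in amnion-like cells and −3.08 for MSX1 in endoderm-like cells (wild-type Day 12), −0.86 for MSX2 in Epi-like cells and 0.70 for MSX1 in ExE-Mech-like cells (mutant Day 12), −1.29 for MSX1 in ExE-Mech-like cells and −1.92 for MSX2 in ExE-Mech-like cells (mutant against wild type at Day 12). With uncorrected counts the values now called were 2.00 for MSX2 in amnion-like cells and −3.04 for MSX1 in endoderm-like cells (wild-type Day 12), −0.82 for MSX2 in Epi-like cells (mutant Day 12). With uncorrected counts the values of the opposite sign were −0.047 for MSX2 in endoderm-like cells (wild-type Day 12). Without the library block the values no longer called were 4.33 for MSX1 in amnion-like cells, −4.59 for MSX1 in Epi-like cells, 2.51 for MSX1 in ExE-Mech-like cells and −2.44 for MSX2 in ExE-Mech-like cells (wild-type Day 12), 2.92 for MSX1 in mesoderm-like cells (mutant Day 12). Without the library block the values of the opposite sign were −0.097 for MSX2 in mesoderm-like cells (mutant Day 12). Without integration the values now called were −1.88 for MSX1 in trophoblast-like cells (wild-type Day 10), −1.09 for MSX2 in Epi-like cells (mutant Day 12). Without integration the values no longer called were −0.89 for MSX1 in Epi-like cells and −2.43 for MSX2 in ExE-Mech-like cells (wild-type Day 12), 2.95 for MSX1 in mesoderm-like cells (mutant Day 12). Without integration the values of the opposite sign were 0.33 for MSX2 in endoderm-like cells (wild-type Day 14), −0.063 for MSX2 in endoderm-like cells and −0.34 for MSX2 in mesoderm-like cells (mutant Day 12), 0.050 for MSX2 in unnamed cells (mutant Day 14). Without integration the values moved by more than the spread between replicates, with no test were −3.07 for MSX2 in Epi-like cells and 2.07 for MSX2 in trophoblast-like cells (wild-type Day 14), 2.28 for MSX1 in amnion-like cells and 0.38 for MSX2 in mesoderm-like cells (mutant Day 14). At cluster resolution 0.4 the values no longer called were −2.05 for MSX2 in ExE-Mech-like cells (wild-type Day 12), −1.86 for MSX1 in Epi-like cells and 2.69 for MSX1 in mesoderm-like cells (mutant Day 12). At cluster resolution 0.4 the values of the opposite sign were −0.041 for MSX2 in endoderm-like cells (wild-type Day 10), −0.49 for MSX2 in mesoderm-like cells (mutant Day 12), 0.31 for MSX2 in unnamed Epi-derived cells (mutant Day 14). With types of at least 20 cells the values moved by more than the spread between replicates, with no test were −2.44 for MSX2 in Epi-like cells, 2.70 for MSX1 in ExE-Mech-like cells, 5.44 for MSX1 in mesoderm-like cells, 1.39 for MSX2 in mesoderm-like cells and 2.99 for MSX2 in trophoblast-like cells (wild-type Day 12), 3.13 for MSX1 in amnion-like cells (wild-type Day 14). With the unnamed cells that 1 library holds, an alternative added after the data were seen, the values now called were −3.40 for MSX1 in endoderm-like cells (wild-type Day 12). With the unnamed cells that 1 library holds, an alternative added after the data were seen, the values of the opposite sign were −0.22 for MSX2 in endoderm-like cells (wild-type Day 12), 0.012 for MSX2 in endoderm-like cells (wild-type Day 14). With the unnamed cells that 1 library holds, an alternative added after the data were seen, the values moved by more than the spread between replicates, with no test were 0.68 for MSX1 in ExE-Mech-like cells and −4.09 for MSX1 in trophoblast-like cells (wild-type Day 14). Without the clusters with more leading markers of another class than of their own the values now called were 2.06 for MSX2 in amnion-like cells (wild-type Day 12).

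Leaving out 1 library leaves most type comparisons with no test, and the values are given as ranges on the log2 scale. For wild-type Day 10 it gave MSX1 in endoderm-like cells −1.98 to 0.40, MSX2 in endoderm-like cells −0.36 to 0.67, MSX1 in unnamed Epi-derived cells 2.17 to 4.38. For wild-type Day 12 it gave MSX1 in amnion-like cells 3.49, MSX2 in amnion-like cells 1.78, MSX2 in endoderm-like cells −0.33 to 0.62, MSX2 in Epi-like cells −4.16 to −2.78, MSX1 in ExE-Mech-like cells 1.70, MSX1 in mesoderm-like cells 4.14, MSX2 in trophoblast-like cells 1.90 to 3.54. For wild-type Day 14 it gave MSX1 in amnion-like cells 3.102 to 5.35, MSX1 in endoderm-like cells −1.94 to −0.87, MSX2 in endoderm-like cells −0.83 to 0.60, MSX1 in Epi-like cells −9.06 to −2.51, MSX2 in Epi-like cells −2.95 to 0.48, MSX1 in ExE-Mech-like cells 0.54 to 1.45, MSX2 in ExE-Mech-like cells −4.38 to −2.03, MSX1 in mesoderm-like cells 3.29 to 5.06, MSX1 in transition-like cells 1.89 to 3.71, MSX1 in trophoblast-like cells −4.24 to −3.63. For mutant Day 12 it gave MSX1 in amnion-like cells 2.98 to 4.32, MSX1 in endoderm-like cells −3.92 to −1.49, MSX1 in ExE-Mech-like cells 0.42 to 1.22, MSX2 in ExE-Mech-like cells −4.20 to −3.02, MSX1 in unnamed Epi-derived cells 2.01 to 2.70, MSX2 in unnamed Epi-derived cells 1.42 to 1.87. For mutant Day 14 it gave MSX1 in amnion-like cells 2.79 to 5.15, MSX2 in amnion-like cells 1.36 to 2.57, MSX1 in endoderm-like cells −9.55 to 0.97, MSX2 in endoderm-like cells 0.15 to 1.67, MSX1 in Epi-like cells −3.62 to −0.20, MSX2 in Epi-like cells −1.38 to 1.92, MSX1 in ExE-Mech-like cells 0.96 to 2.71, MSX1 in trophoblast-like cells −2.70 to −0.86, MSX2 in trophoblast-like cells 0.86 to 1.33, MSX1 in unnamed cells −2.41 to 1.00, MSX2 in unnamed cells −1.04 to 0.33, MSX1 in unnamed Epi-derived cells 0.80 to 1.75, MSX2 in unnamed Epi-derived cells −2.63 to −0.50. For mutant against wild type at Day 14 it gave MSX1 in trophoblast-like cells −0.024 to 0.91. For mutant against wild type at Day 14 it gave MSX2 in endoderm-like cells −1.0 to 0.70. For mutant against wild type at Day 14 it gave MSX2 in Epi-derived cells −1.83 to 0.75. For Day 14 against Day 10 it gave MSX2 in Epi-derived cells 0.41 to 2.75.

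With the batch number of the labels as a replicate block, all 17 values of MSX1 and MSX2 kept their direction and, where tested, their side of the threshold (for example −1.49 for MSX2 in trophoblast-like cells of mutant against wild type at Day 14). No call of either gene changed. The counts of genes called moved from 64 to 732 in Epi-derived cells at Day 14, from 1 to 16 and 1 to 9 in ExE-Mech-like cells at Day 14 and endoderm-like cells at Day 12, and from 0 to 3 and 0 to 2 in trophoblast-like cells at Day 12 and in endoderm-like cells between days.

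Counts of genes called also depended on the setting. In Epi-derived cells the 64 genes became 3 without the shallow cluster and 4 to 806 when a library was left out. In the other 9 comparisons of genotype or day 0 to 1 genes were called, against 7 to 1023 with DESeq2, 0 to 718 with no filter, 0 to 102 without a library, 0 to 99 with at least 20 cells, 0 to 16 with the block and 0 to 5 with size factors. For types the 2 to 4507 genes became 0 to 3617 without the library block, 158 to 5549 with no filter, 32 to 5126 with DESeq2, 17 to 4165 at resolution 0.4 and 1 to 4390 with uncorrected counts, 43 to 4507 at Day 10 and Day 12 becoming 106 to 4289 without the 6 clusters, and 4 to 1986 in place of 2 to 2087 at mutant Day 14 without the shallow cluster. For the types that could be formed the 39 to 4507 genes became 13 to 4507 without integration and 20 to 4507 with at least 20 cells. In simulated counts like those of trophoblast-like cells at Day 12, edgeR recovered 41% of genes changed by 2 and 69% of genes changed by 3 on the log2 scale. At Day 14 it recovered 18% and 49%. Beside them 8 and 3 unchanged genes were called, more than 1% of the calls in both. A fit with these libraries thus misses many differences of this size and does not hold the 1% rate. The changed genes were drawn at random from all genes tested, and recovery at the level of MSX2 was not looked at.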
